A study of Mus musculus with 6 samples.

Results

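The genes described here serve the endoplasmic reticulum (ER) and the first steps of the secretory pathway. They are 45 named genes, chosen by symbol: the sensors and transcription factors of the ER stress response, chaperones, protein disulfide isomerases, the machinery that degrades misfolded proteins, the translocon with its signal peptidase, and the coat of vesicles that leave the ER. All 45 were among the 14744 genes of the table, and 43 passed the filter on low values, a normalized read count of at least 10 in at least 3 of 6 libraries, as did 11296 genes in all.

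RNA was sequenced from T follicular helper (Tfh) cells, which give B cells the signals needed for germinal centers, sorted as CD4+B220-CD44+PD-1+CXCR5+ from mesenteric lymph nodes of C57BL/6 mice. Each library came from 10000 to 30000 cells. The labels give no age; mice of the published figure that shows these data were 2 to 3 months old. The WT group holds 3 libraries, and the Bach2-cKO group holds 3 from mice carrying Bach2 fl/fl and Cd4-cre, whose Cre acts in all T cells that passed through a CD4-expressing stage and not only in Tfh cells. In the study, littermates with Cd4-Cre alone were designated WT; the labels of these libraries give only WT. The labels name no treatment.

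Proteins bound for the cell surface or for secretion enter the ER through the SEC61 channel, lose their signal peptide, fold with the help of chaperones and disulfide isomerases, and leave in COPII-coated vesicles. When unfolded proteins collect, the sensors IRE1 (Ern1), PERK (Eif2ak3) and ATF6 raise chaperones and degradation through XBP1, ATF4 and cleaved ATF6. The response is best known from plasma cells; Tfh cells secrete cytokines such as IL-21 and carry many receptors made by the same route.

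Bach2, the gene targeted in the Bach2-cKO mice, goes against the labels. Its normalized read count was 233, 222 and 105 in the WT libraries, and 399, 763 and 591 in the libraries labelled Bach2-cKO. All 3 libraries labelled Bach2-cKO were above all 3 WT libraries (log2 fold change 1.68, SE 0.37, limma adjusted p = 0.141). With library weights it stood at 2.36 (adjusted p = 0.000186), and in DESeq2 on 5 libraries at 1.81 (adjusted p = 0.00123). In edgeR on those 5 it stood at 1.83 (adjusted p = 0.148), and corrected for length and GC content in limma at 1.15 (adjusted p = 0.292). A value per gene also counts exons outside a deleted part, so it does not check the deletion, and every direction below is one between libraries by their labels.

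WT replicate 1 stands apart. Only 11648 genes were detected in it, whereas the remaining 5 libraries had between 13111 and 13567, and its weight, estimated by limma from the data, was the lowest of the 6 at 0.206. Its normalized total of 7809702 lay within the range of the others, 7361229 to 8135325. Some values below are also given without it. The other weights were 1.045 and 2.513 in WT and 0.791, 5.543 and 0.421 in the libraries labelled Bach2-cKO. A fit with library weights therefore leans on WT replicate 3 and Bach2-cKO replicate 2.

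Markers of T cells were high in every library: Cd3g, the most abundant of 5, had values from 11574 to 24155. At an unadjusted p under 0.05, Cd3e (log2 fold change -1.02) and Trac (-0.72) were lower in the libraries labelled Bach2-cKO and Cd4 (0.49) higher. The 8 Tfh markers summed to 14712 to 30725, with 2 higher and 1 lower at that level. Of 9 B cell markers 6 were tested, and these, led by Cd79b, summed to 204, 722 and 489 in WT and 210, 238 and 274 in the libraries labelled Bach2-cKO; 1, Ms4a1, was lower at that level (log2 fold change -2.83). The plasma cell list differed widely, with 7 of its 11 genes in the table and summed values of 471, 29249 and 7205 in the WT libraries and 2382, 707 and 690 in the libraries labelled Bach2-cKO. Most of that sum was Jchain, at 28803 in WT replicate 2 and 316 in WT replicate 1. The myeloid list of 8, led by Lyz2, summed to 2343, 8014 and 3984 in WT and 1917, 5245 and 1783 in the libraries labelled Bach2-cKO, with Cd68 lower at an unadjusted p under 0.05 (log2 fold change -0.96). The 4 genes of CD8 T and NK cells, led by Cd8b1, summed to 291 to 1104, and 1 of 7 tested genes that respond to handling of cells was higher at an unadjusted p under 0.05. Of 6 genes used by all cells, 3 were lower at that level in the libraries labelled Bach2-cKO, Gapdh among them with a log2 fold change of -1.34. All 6 had negative values, up to -0.17 in Actb, with a median of -0.47. The part of these lists in the results was not tested, and in sorted bulk RNA fewer cells of a type and less RNA per cell cannot be told apart.

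Between the groups, no member passed an adjusted p of 0.01 with a change over 2-fold in limma, nor did any of the 11296 genes (0%). At an unadjusted p under 0.05, 2 of the 43 members were higher in the libraries labelled Bach2-cKO, against 10.1% of all genes, and 5 were lower, against 10.2% of all genes. These are 4.65% and 11.6% of the members, so the list did not hold more such genes than the table as a whole in the higher direction, and held about the same share in the lower one. The median log2 fold change of the members was -0.04, beside 0.08 over all genes tested, and 20 members had a positive and 23 a negative value. The members' median turned to 0.066 with quantile normalization, 0.014 with edgeR, 0.0092 without WT replicate 1 and 0.033 without WT replicate 3. In those settings the median of all genes was 0.019, 0.039, 0.025 and 0.099, so the members' median was above it with quantile normalization only. The smallest adjusted p among them was 0.144, for Pdia3. Without WT replicate 1, 3 members were higher and 3 lower at an unadjusted p under 0.05, against 9.79% and 9.43% of all genes.

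The members were well measured compared with the rest of the table. Their median standing by mean value was at percentile 84.3 of all genes tested, and 17 of 43 lay above percentile 90. The 95% interval of the log2 fold change stayed within 2-fold in both directions for 26 of 43 members (60.5%), against 27.1% of all genes. For those 26, a change over 2-fold lies outside the interval; for the other 17, including Pdia3, Syvn1 and Ern1, it lies inside.

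**Figure D1:**
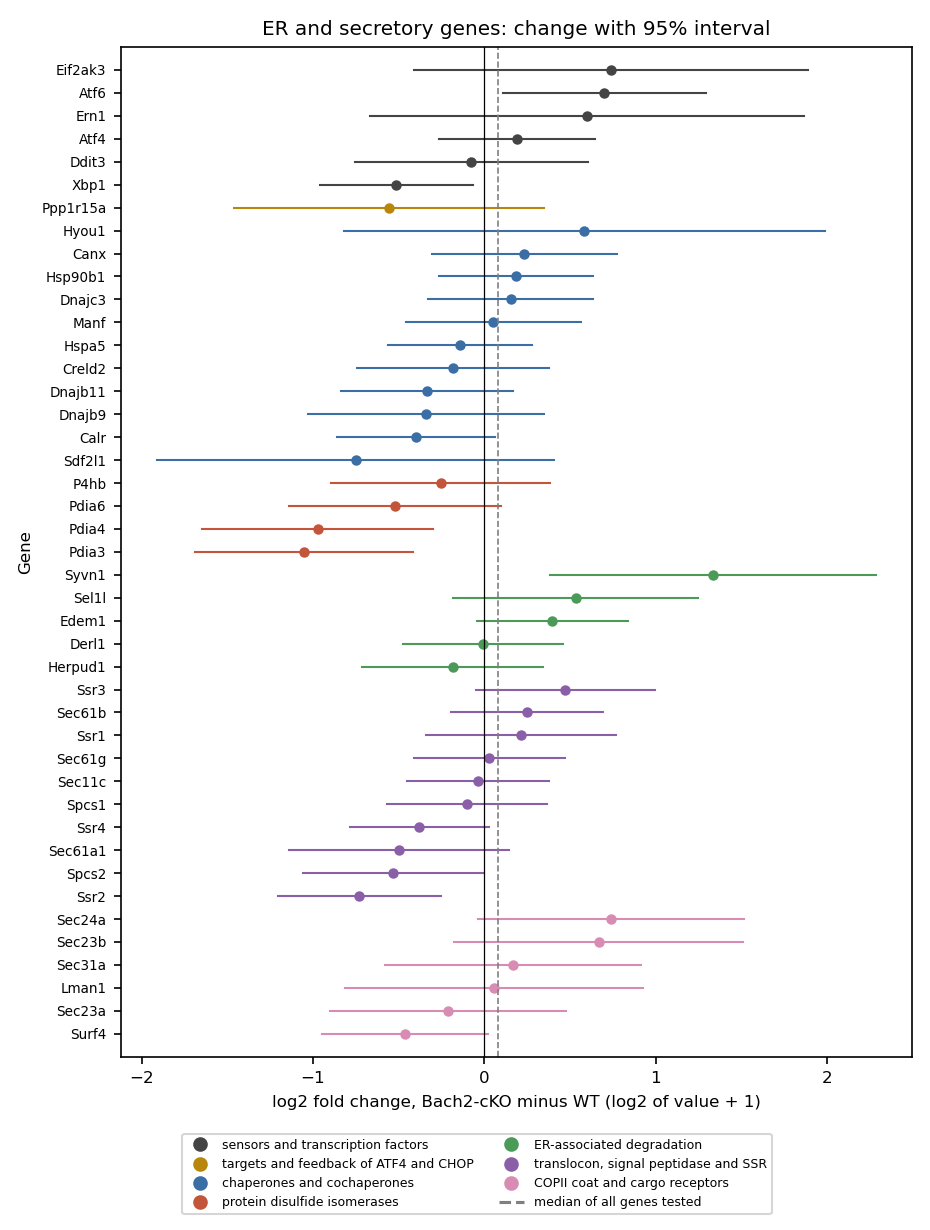
Log2 fold change of the 43 tested genes, libraries labelled Bach2-cKO minus WT on the log2(value + 1) scale, grouped by role. Points are estimates and bars 95% intervals from limma; the dashed line is the median of all genes tested, 0.08, and most bars cross 0.

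The 4 protein disulfide isomerases, which form and rearrange disulfide bonds in folding proteins, all had negative log2 fold changes, from -1.05 to -0.26 with a median of -0.75, but P4hb turned to 0.10 without WT replicate 1. Pdia3, or ERp57, works with calnexin and calreticulin on glycoproteins and in the loading of MHC class I. It lies at chr2:121413775-121438687 (GRCm38). Its normalized read count was 8607, 5529 and 7258 in WT and 2437, 3068 and 5177 in the libraries labelled Bach2-cKO. The groups did not overlap, though Bach2-cKO replicate 3 came within a short distance of WT replicate 2 (log2 fold change -1.05, SE 0.29, limma adjusted p = 0.144). Pdia4 was likewise lower in every library labelled Bach2-cKO, with 1025, 621 and 882 in WT and 386, 311 and 619 in the libraries labelled Bach2-cKO. Here the nearest values of the groups almost touched (log2 fold change -0.97, SE 0.30, limma adjusted p = 0.156).

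The values of the other isomerases depended on single WT libraries. Pdia6 had 3511, 1528 and 2263 in WT and 1494, 1657 and 1657 in the libraries labelled Bach2-cKO. WT replicate 1 was far above every other library, and WT replicate 2 lay inside the other group's range (log2 fold change -0.52, SE 0.28, limma adjusted p = 0.304; -0.22 without WT replicate 1 and -0.82 without WT replicate 2). P4hb had 2576, 1114 and 1365 in WT and 1386, 1299.9 and 1276 in the libraries labelled Bach2-cKO, so its negative value of -0.26 rested on WT replicate 1. Without WT replicate 1 the median of the isomerases was -0.52, and without WT replicate 2 it was -0.996. Pdia3 gave -0.90 without WT replicate 1, with an adjusted p of 0.17, and over all settings its adjusted p ranged from 0.000485 to 0.507.

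**Figure D2:**
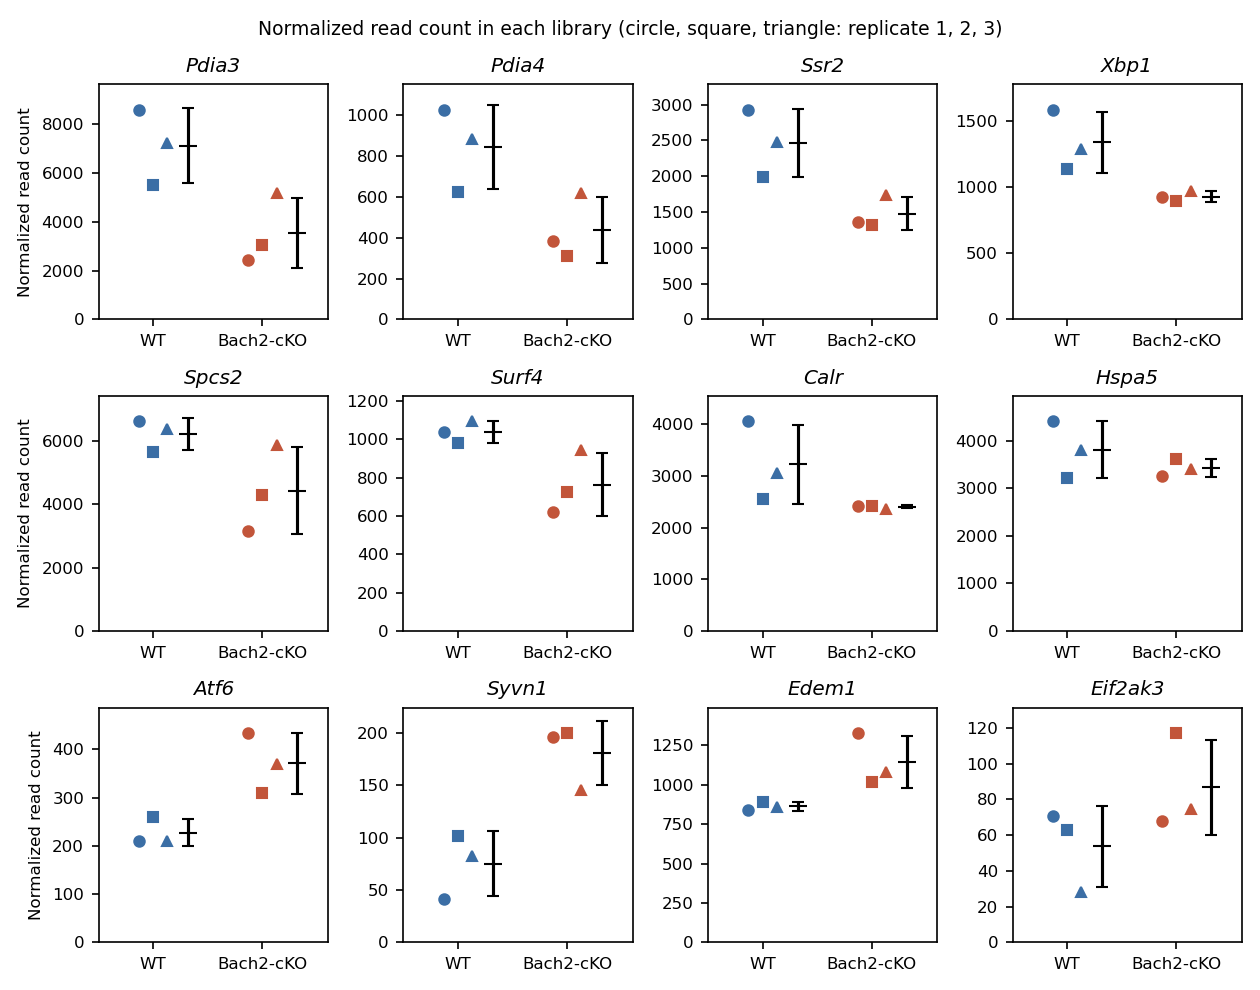
Normalized read count of 12 genes in each library, with replicates 1, 2 and 3 as circle, square and triangle and mean and SD beside them in black (n = 3 per group). Pdia3, Pdia4, Ssr2, Xbp1, Surf4 and Calr are lower, and Atf6, Syvn1 and Edem1 higher, in every library labelled Bach2-cKO; the groups of the other 3 genes overlap.

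Among the 6 sensors and transcription factors, the highest value per kb of transcript was that of Xbp1, 533, and the lowest that of Ern1, 6.5. Xbp1, spliced by IRE1 into the active factor, had 1588, 1139 and 1294 in WT and 925, 895 and 971 in the libraries labelled Bach2-cKO. The groups did not overlap, and the libraries labelled Bach2-cKO lay close together (log2 fold change -0.51, SE 0.20, limma adjusted p = 0.203). Values per gene do not separate spliced from unspliced Xbp1. Atf6, which is cut in the Golgi to release a transcription factor, went the other way, with 211, 259 and 211 in WT and 435, 309 and 370 in the libraries labelled Bach2-cKO. Again the groups did not overlap (log2 fold change 0.70, SE 0.27, limma adjusted p = 0.194).

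The other sensors overlapped between the groups. Ern1 had 30.3, 50.5 and 26.0 in WT and 60.6, 69.7 and 33.8 in the libraries labelled Bach2-cKO. Eif2ak3, the kinase PERK that slows translation, had 70.7, 62.8 and 28.1 in WT and 68.0, 117 and 74.7 in the libraries labelled Bach2-cKO. Both are low, and their log2 fold changes of 0.60 and 0.74 came with an SE of 0.57 and 0.52. With 1 library left out Ern1 ran from 0.40 to 0.91 and Eif2ak3 from 0.33 to 0.98, and corrected for length and GC content they stood at 0.053 and 0.30. With library weights in limma Ern1 stood at 1.03 (adjusted p = 0.0583) and Eif2ak3 at 1.51 (adjusted p = 0.00707). Atf4, the factor whose translation rises when PERK acts, had 905, 777 and 1032 in WT and 1085, 1087 and 919 in the libraries labelled Bach2-cKO. Ddit3, which encodes CHOP, had 232, 367 and 487 in WT and 322, 306 and 359 in the libraries labelled Bach2-cKO. For both, the spread among WT libraries was larger than the difference between the groups (log2 fold changes 0.19, SE 0.20, and -0.08, SE 0.31). With 1 library left out Atf4 ran from 0.088 to 0.29 and Ddit3 from -0.36 to 0.17.

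Of the targets of ATF4 and CHOP, 2 of 3 did not pass the filter. Chac1, an enzyme that breaks down glutathione, was at 0 in 5 libraries and at 4.69 in Bach2-cKO replicate 2. Trib3, a pseudokinase, had 0, 3.37 and 4.16 in WT and 14.8, 3.35 and 29.7 in the libraries labelled Bach2-cKO. Both were at or near the lower end of what the libraries can measure, so no fold change is given. Ppp1r15a, which encodes GADD34 and reverses the action of PERK, had 180, 110 and 106 in WT and 76.9, 119 and 71.6 in the libraries labelled Bach2-cKO. These groups overlapped (log2 fold change -0.56, SE 0.41, limma adjusted p = 0.434, with -0.31 without WT replicate 1 and -0.78 without Bach2-cKO replicate 2). With library weights Ppp1r15a stood at -0.013.

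The 11 chaperones and cochaperones were mixed, 5 with a positive and 6 with a negative log2 fold change and 0 with an unadjusted p under 0.05. Of all genes tested, 6185 had a positive and 5111 a negative value, and 10.1% were higher and 10.2% lower at that level. Calr, the lectin chaperone calreticulin, had the highest value per kb, 1288. Its values were 4059, 2560 and 3052 in WT and 2424, 2423 and 2366 in the libraries labelled Bach2-cKO. The groups did not overlap, but WT replicate 2 was close to the other group (log2 fold change -0.40, SE 0.21, limma adjusted p = 0.297; -0.22 without WT replicate 1 and -0.55 without WT replicate 2). Hspa5, or BiP, the chaperone that holds the sensors inactive, had 4410, 3215 and 3800 in WT and 3247, 3613 and 3405 in the libraries labelled Bach2-cKO. All 3 of the latter lay within the WT range (log2 fold change -0.14, SE 0.19, limma adjusted p = 0.675; -0.032 without WT replicate 1 and -0.26 without WT replicate 2). Its 95% interval, from -0.56 to 0.28, leaves out a 2-fold change in either direction.

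In ER-associated degradation, Syvn1 encodes the ubiquitin ligase HRD1 and Sel1l its partner. Syvn1 had 41.4, 102 and 82.1 in WT and 197, 200 and 145 in the libraries labelled Bach2-cKO. In this fit this was the largest log2 fold change of the 43 members, with no overlap of the groups (1.33, SE 0.43, limma adjusted p = 0.159). Without WT replicate 1, its lowest library, Syvn1 stood at 0.96, below Eif2ak3 at 0.98. Corrected for length and GC content it stood at 0.73, where Sec23b was at 0.81 and Pdia3 at -0.98. Edem1, a lectin that takes misfolded glycoproteins out of folding, was also higher in every library labelled Bach2-cKO, at a mean of 1143 against 863 (log2 fold change 0.40, SE 0.20, limma adjusted p = 0.278), but stood at -0.0033 under a correction for length and GC content. Herpud1, with the highest value per kb of the 5, 370, had 846, 761 and 682 in WT and 882, 604 and 560 in the libraries labelled Bach2-cKO, and the groups overlapped.

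The translocon, signal peptidase and translocon-associated (SSR) genes held the highest values per kb of all members, 4804 for Sec61b and 4715 for Spcs1. Sec61b, a small subunit of the channel, had 3023, 2953 and 3512 in WT and 3961, 4349 and 3041 in the libraries labelled Bach2-cKO. Ssr2, a subunit of the complex beside the channel, had 2930.1, 1988 and 2472 in WT and 1364, 1323 and 1742 in the libraries labelled Bach2-cKO. The groups of Sec61b overlapped, and those of Ssr2 did not (log2 fold change -0.73, SE 0.21, limma adjusted p = 0.149). Spcs2, a signal peptidase subunit, had 6620.2, 5640.0 and 6368 in WT and 3141, 4282 and 5855 in the libraries labelled Bach2-cKO. Bach2-cKO replicate 3 lay inside the WT range (log2 fold change -0.53, SE 0.24, limma adjusted p = 0.244; -0.31 without Bach2-cKO replicate 1). Of the other subunits of the SSR complex, to which Ssr2 belongs, none had an unadjusted p under 0.05, where 10.1% of all genes were higher and 10.2% lower. Ssr1 stood at 0.22 (SE 0.25), Ssr3 at 0.47 (SE 0.23) and Ssr4 at -0.38 (SE 0.18). With 1 library left out Ssr1 ran from 0.095 to 0.43. Under a correction for length and GC content Ssr1 turned to -0.17, and Ssr3 stood at 0.67 (limma unadjusted p = 0.044).

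Of the 6 genes of the COPII coat and its cargo receptors, 0 had an unadjusted p under 0.05 in limma without correction or weights. There 10.1% of all genes were higher and 10.2% lower at that level. Corrected for length and GC content, Surf4 (-0.80) and Sec23b (0.81) had such a p, as did 1633 of 11266 genes. Surf4, a cargo receptor with the highest value per kb of these, 275, had 1039, 981 and 1095 in WT and 621, 726 and 944 in the libraries labelled Bach2-cKO. It was lower in every library labelled Bach2-cKO, by a narrow margin (log2 fold change -0.46, SE 0.22, limma adjusted p = 0.261). Sec24a, which binds cargo in the coat, had 127, 264 and 173 in WT and 265, 403 and 254 in the libraries labelled Bach2-cKO. Its log2 fold change was 0.74 (SE 0.35, limma adjusted p = 0.261), with 0.49 without WT replicate 1 and 1.01 without WT replicate 2. In this fit it was the second largest positive one of the members, level with that of Eif2ak3 at the digits given. With library weights in limma Sec24a stood at 0.96 (adjusted p = 0.00655), below Eif2ak3 at 1.51. WT replicate 2 lay within the range of the libraries labelled Bach2-cKO.

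In all, 3 of 43 members were higher in every library labelled Bach2-cKO than in every WT library (6.98%, against 14.6% of all genes tested), and 7 were lower (16.3%, against 12.2%). With a library left out, more genes of any kind do so. The counts were 5 and 8 without WT replicate 1 (against 20.5% and 18.1% of all genes) and also without WT replicate 3 (19.2% and 15.1%). Without WT replicate 2 they were 7 and 12 (16.3% and 27.9% of members, against 21.6% and 18.8%), and without Bach2-cKO replicate 3 they were 13 and 10 (30.2% and 23.3%, against 27.2% and 23.0%). With Bach2-cKO replicate 3 left out, limma gave Pdia3 an adjusted p of 0.0372 and Pdia4 one of 0.0478; these 2 were the members under 0.05 (4.65%), where 507 of all genes were (4.49%). That library was the nearest to WT for Pdia3, Pdia4, Ssr2, Spcs2 and Surf4. Summed, the 45 genes took 0.980%, 0.831% and 0.899% of the normalized total in WT and 0.799%, 0.857% and 0.865% in the libraries labelled Bach2-cKO. These shares overlap.

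**Figure D3:**
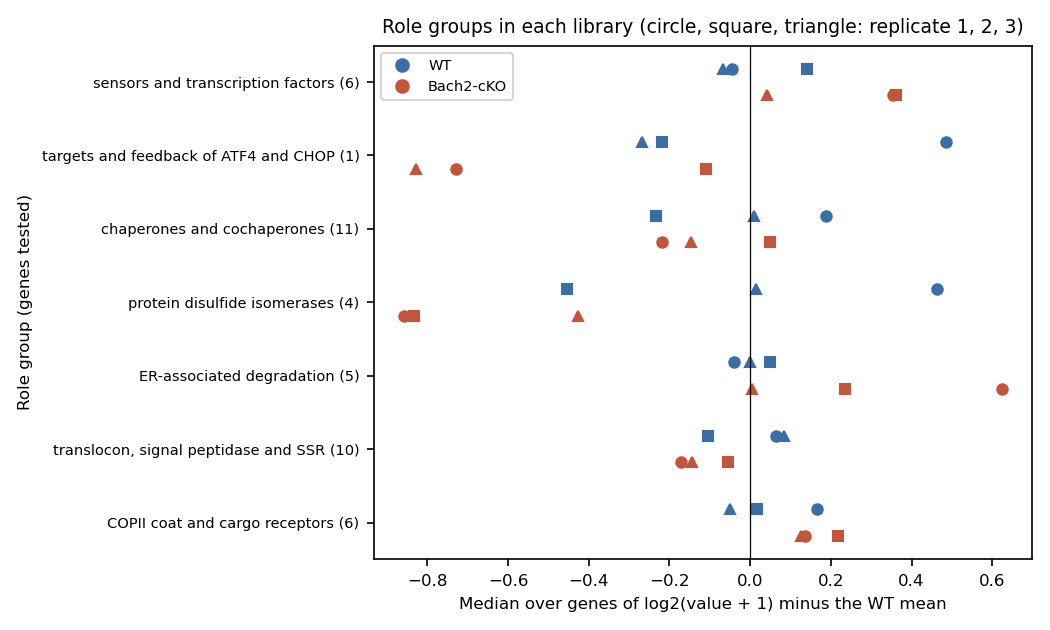
Median over the genes of each role group of log2(value + 1) minus the WT mean, in each library, with WT in blue and the libraries labelled Bach2-cKO in red. The isomerases show the widest spread, from 0.46 in WT replicate 1 to -0.86 in Bach2-cKO replicate 1. Their groups overlap, with WT replicate 2 at -0.45 and Bach2-cKO replicate 3 at -0.43. The targets of ATF4 and CHOP, with 1 gene tested, spread almost as widely, from 0.49 in WT replicate 1 to -0.83 in Bach2-cKO replicate 3.

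The log2 fold changes of the members went with the length of their transcripts. Over the 43 genes, the Spearman correlation between transcript length, taken from each gene's longest annotated form, and log2 fold change was 0.58, and over 11266 genes with a length it was 0.32; genes share libraries and are not independent replicates. Of the 22 members at or under the median length of 2957 bases, 17 had a negative log2 fold change (median -0.34), and of the 21 longer ones, 15 had a positive one (median 0.22). All genes split at that length gave medians of -0.18 and 0.30. After each library was corrected for length and GC content by a smooth curve, the correlation over the members was 0.149. Of the 10 members whose groups did not overlap, Syvn1 then stood at 0.73, Atf6 at 0.28, Edem1 at -0.0033, Pdia3 at -0.98, Pdia4 at -0.80, Surf4 at -0.80, Ssr2 at -0.67, Xbp1 at -0.41, Ssr4 at -0.37 and Calr at -0.22.

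**Figure D4:**
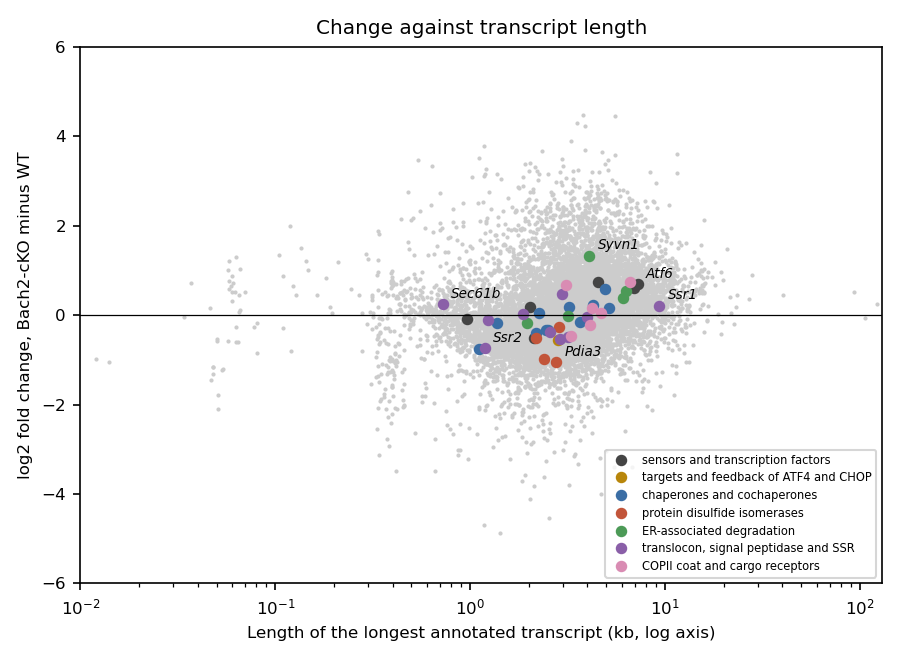
Log2 fold change, libraries labelled Bach2-cKO minus WT, against the length of the longest annotated transcript on a log axis, with all genes tested in grey and the members in color by role.

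Some promoters of these genes hold a known element. The choice by symbol did not read promoters, but it took genes of the ER stress response, which this element serves. The shares below are thus a description and not independent of the choice. The members are also counted among all genes with a window. The ER stress element (ERSE), bound by ATF6 together with NF-Y, is CCAAT and CCACG with 9 bases between them. RefSeq windows of 250 bases before to 50 after the start (GRCm38.p6) were found for 37 of 45 members (not for Atf6, Manf, Hyou1, Derl1, Sec61a1, Sec11c, Ssr2 and Lman1), and 8 of them (21.6%) held the exact element on either strand, against 0.137% of 27025 genes with a window. The matches are shown with 5 bases on each side, on the strand where CCAAT comes first, and the capitals mark the 2 conserved parts:
Hspa5, chr2:34772020-34772048: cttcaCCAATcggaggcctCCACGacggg
Calr, chr8:84847070-84847098: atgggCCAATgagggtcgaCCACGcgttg
Canx, chr11:50325795-50325823: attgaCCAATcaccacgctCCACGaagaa
Hsp90b1, chr10:86705528-86705556: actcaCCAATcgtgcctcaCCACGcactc
Pdia6, chr12:17266486-17266514: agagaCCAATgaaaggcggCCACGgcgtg
Creld2, chr15:88819515-88819543: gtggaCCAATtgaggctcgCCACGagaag
Dnajc3, chr14:118937822-118937850: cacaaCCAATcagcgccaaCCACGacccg
Syvn1, chr19:6046527-6046555: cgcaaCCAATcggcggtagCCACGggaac
In Hspa5 the element runs from 65 to 47 bases before the start, and in Syvn1 from 44 to 26.

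The log2 fold changes of the 8 genes with this element ran from -0.52 in Pdia6 to 1.33 in Syvn1, with a median of 0.005. Hsp90b1, which holds the element a second time on the other strand, stood at 0.19, Canx at 0.23, Dnajc3 at 0.15 and Creld2 at -0.18, each with an SE larger than its size. With 1 library left out, Hsp90b1 ran from 0.016 to 0.28, Canx from 0.053 to 0.44, Dnajc3 from -0.0046 to 0.28 and Creld2 from -0.39 to -0.028. These genes were named for their promoters, after their values were seen. The part CCACG alone was in 27 of the 37 windows, against 35.5% of genes. The XBP1 and ATF6 element TGACGTGG was in that of Sec23a only, against 0.714% of genes, and the ATF4 element TGATGNAA in those of Chac1, Trib3 and Herpud1, against 4.51%. A match describes these letters and says nothing of binding.

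Beyond the members, 84 further genes of the ER and secretory pathway were listed, of which 80 were tested. At an unadjusted p under 0.05, 7 (8.75%) were higher and 11 (13.8%) lower in the libraries labelled Bach2-cKO, again near the shares of all genes, and their median log2 fold change was -0.01. Ddit4, a stress-induced inhibitor of mTORC1, had 38.4, 70.7 and 70.7 in WT and 396, 223 and 151 in the libraries labelled Bach2-cKO. Eif2s1, which encodes the translation factor that PERK phosphorylates, had 4613, 4221 and 4370.4 in WT and 1302, 1544 and 2749 in the libraries labelled Bach2-cKO. Neither overlapped between the groups, with log2 fold changes of 2.02 (SE 0.46) and -1.31 (SE 0.27) and a limma adjusted p = 0.141 for both. With library weights in limma they stood at 1.75 (adjusted p = 0.000722) and -1.47 (adjusted p = 0.000159). In DESeq2 on 5 libraries they stood at 1.82 (adjusted p = 0.00563) and -1.23 (adjusted p = 0.0111). In edgeR on those 5 the adjusted p was 0.151 for both.

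With a weight for each library estimated from the data, 4 of 43 members, Pdia3, Pdia4, Syvn1 and Eif2ak3, passed an adjusted p of 0.01 with a change over 2-fold, against 9.99% of all genes. WT replicate 3 and Bach2-cKO replicate 2, with the highest weights of their groups, 2.513 and 5.543, carry most of that fit. Eif2ak3 had its lowest value, 28.1, in the former and its highest, 117, in the latter. DESeq2 on whole reads recovered from 5 libraries, WT replicate 1 left out, passed 0 members, against 0.797% of all genes, and edgeR on the same reads passed 0 genes.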

How the data were processed

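Polyadenylated RNA was amplified with the SMARTer Ultra Low kit and sequenced on a NextSeq500. The authors deposited a signal per gene and library, the normalized read count. The study's methods name Tophat2, HTSeq and DESeq2; the submitters' processing notes name STAR 2.5.2b, DESeq, R 3.5.1, DESeq2 1.20.0 and the builds GRCm38 and mm10, so the aligner is uncertain. In each library 100% of values were whole multiples of a step, within a tolerance of 0.1 of a step; in 5 libraries these gave 5045131 to 10987752 reads, on which edgeR 4.0.16 called 0 genes and DESeq2 1.42.0 called 90. WT replicate 1 was left out of both: its step, 1.01, is so near 1 that the check of units used here did not accept its reads as recovered, though with a step of 1 read they would number 7737531.

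Here log2(value + 1) was tested with limma 3.58.1 (R 4.3.3, trended variance, 2-sided, Benjamini-Hochberg over 11296 genes), checked on simulated data. Fold changes are on that scale and understate those of low genes. The labels do not say that replicates came from separate animals, so p-values measure the spread between these samples; an exact permutation test of 3 against 3 cannot go below 0.1. Lengths came from GENCODE M21. Members and lists were chosen with earlier results of these data known. Named genes were Bach2, the 6 sensors and transcription factors, members with an unadjusted p under 0.05, the highest per kb in each role group, the 2 largest changes each way, members below the filter and, from the further list, genes with an unadjusted p under 0.01 and over 2-fold. Hspa5, Hsp90b1, Canx, Creld2, Dnajc3, Pdia6, P4hb, Edem1, Spcs1, Ssr1, Ssr3 and Ssr4 fall outside it and were named after their values were seen. Alternatives varied the pseudocount, filter, normalization, variance model, weights, length correction, pairing, test and libraries.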

Additional observations from a re-analysis of the deposited data

How the results depend on the processing

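No setting but library weights and DESeq2 passed a gene at an adjusted p of 0.01 and 2-fold: limma with library weights passed 561 higher and 567 lower, and DESeq2 33 and 57. Members with an unadjusted p under 0.05 numbered 5 higher and 3 lower with quantile normalization (against 10.6% and 10.8%), 11 and 14 with library weights (against 24.3% and 22.8% of all genes), 3 lower without the variance trend (7.83%), and 3 lower with edgeR (8.77%) and with DESeq2 (9.45%). Leaving out 1 library gave 1 to 5 higher and 3 to 8 lower (4.14% to 13.1% and 5.36% to 14.0% of all genes). Members higher in every library labelled Bach2-cKO numbered 5 with quantile normalization (against 13.4% of all genes) and 4 to 13 with 1 library left out (17.0% to 27.2%), and lower ones 8 to 12 (14.0% to 23.0%). Of 32 named genes tested, 25 kept their direction in every setting that tested them, 18 settings or, for Ern1, 17. Correction for length and GC content turned Ddit3 to 0.28, Dnajc3 to -0.094, Edem1 to -0.0033, Ssr1 to -0.17 and Spcs1 from -0.10 to 0.44, and moved the median of all genes from 0.08 to -0.04. Library weights turned Dnajc3 to -0.035, and quantile normalization turned Hspa5 to 0.066 and Spcs1 to 0.054. P4hb turned to 0.086 with edgeR and 0.061 with DESeq2, both of which leave out WT replicate 1. With 1 library left out, Ddit3 ran from -0.36 to 0.17, and Spcs1 from -0.26 to 0.061, both turning without WT replicate 3; Dnajc3 from -0.0046 to 0.28, turning without Bach2-cKO replicate 3; and P4hb from -0.51 to 0.098, turning without WT replicate 1. The cause of the other shifts was not tested. Whether replicate numbers pair the samples is not given by the labels. The correlation of deviations within a number was -0.069, 0.116 and -0.039, and between numbers it ran from -0.145 to 0.117. With 3 libraries a group these values cannot exclude a pairing. The replicate block gave 3 members higher and 4 lower (9.0% and 9.15% of all genes), and 0 genes past the threshold. The size of change that 3 libraries a group can detect was not computed. For Ern1, a low gene, the interval from limma ran from -0.67 to 1.87, so a rise over 2-fold lies inside it. In limma without correction or weights no gene passed the threshold. There Ddit4, with a log2 fold change of 2.02, had an adjusted p of 0.141.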
